A study of Mus musculus with 8 samples.

Results

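The genes described here encode the proteins of the cytosolic ribosome. They were taken from the deposited tables by symbol (Rpl or Rps with a number, and Rpsa, Rplp0, Rplp1 and Rplp2). Pseudogene symbols and the ribosomal S6 kinases were left out. The rule matched 85 symbols. Rpl34 and Rpl38 were left out because a transcript of each was marked as having too little data for an estimate, which left 83 genes of 21882 symbols in the tables. Of these, 50 encode large subunit proteins and 33 small subunit proteins, and 8 of the 83 are paralog copies of another member. The samples were skin of C57BL/6 mouse embryos, sequenced as 8 RNA libraries. At embryonic day 16.5 (E16.5), whole skin of Cyp26b1-/- embryos was compared with whole skin of wild-type embryos. Each of these groups had 2 libraries, which are pooled in its deposited column. At embryonic day 18.5 (E18.5), separate dermis and epidermis libraries were made from En1cre;Cyp26b1f/- embryos (mutant) and Cyp26b1f/+ embryos (control), with 1 library in each group. Cyp26b1 encodes a retinoic acid-degrading enzyme, and En1cre acts in cells that have expressed Engrailed 1. The E18.5 mutant also carries a null allele in every cell where the control carries a wild-type allele, and these differences cannot be told apart.

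A ribosome holds each of these proteins in a fixed number of copies, so their mRNAs are usually made in step with each other. The mRNAs begin with a C followed by a run of pyrimidines, the terminal oligopyrimidine (TOP) motif, through which mTOR signalling controls their translation. Demand for ribosomes follows cell growth, and ribosomal protein mRNAs are among the most abundant in embryonic tissue. The genes have many processed pseudogenes, whose sequence can match the mRNA exactly, so the origin of a short read can be ambiguous.

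Levels are FPKM (sequenced fragments normalised for transcript length and library size), summed over the transcripts of a symbol. The log2 difference of a gene is that of FPKM + 1 in the mutant and in the control column, given relative to the median gene among those of at least 1 FPKM in either group. The pseudocount of 1 understates the change of low genes. The median gene's own difference, which was subtracted, was 0.43 in the skin table, 0.12 in the dermis table and -0.18 in the epidermis table. Cyp26b1 itself went from 34.95 to 58.2 FPKM in skin, from 54.2 to 102 in dermis and from 4.97 to 13.7 in epidermis. Whole-transcript values cannot show a deleted exon, so the genotypes rest on the labels. The labelled tissues also differed in cell type markers. In the dermis, 8 keratinocyte genes summed to 12398 FPKM in the control library and 3854 in the mutant, and in the epidermis to 7942 and 4149, so the control dermis was the highest of these 4 libraries. In the dermis 6 fibroblast genes summed to 721 and 1469 FPKM. Depth is unknown, and the labels do not say that libraries came from separate animals, so p-values describe these libraries.

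Pyrimidine runs were more frequent at the start sites of members than at those of all genes, though many members lacked a long one. Of 61 members found in the RefSeq start-site table (GRCm38.p6), 29 (47.5%) had a run of at least 8 C or T beginning within 20 bases of the annotated start, compared with 19.6% of all 27025 genes in that table. The median longest run was 7 bases in members and 5 in all genes. Only the transcribed strand was searched, and annotated starts can differ from those used in skin. A C at the first base was not required, so these counts do not test the TOP motif itself. Shown here are 6 of these members, picked for long runs close to the annotated start. Each is given with 10 bases before that start and 20 from it on, and with the pyrimidine run in capitals. They encode Rpl35 at the exit of the peptide tunnel, Rpl15, Rpl14, Rpl35a and Rpl28 of the large subunit, and Rps10 of the small subunit.
Rpl35: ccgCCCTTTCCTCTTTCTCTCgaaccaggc
Rpl15: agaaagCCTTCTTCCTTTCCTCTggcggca
Rpl14: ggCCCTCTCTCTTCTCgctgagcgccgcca
Rpl35a: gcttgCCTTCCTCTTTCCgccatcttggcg
Rps10: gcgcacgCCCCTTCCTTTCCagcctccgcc
Rpl28: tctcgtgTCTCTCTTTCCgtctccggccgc
The longest of these runs has 18 bases (Rpl35, minus strand, chr2:39005112-39005141) and the shortest 11 (Rpl28, plus strand, chr7:4792955-4792984). The 6 genes did not share a direction in dermis, where their differences ran from -0.47 (Rps10) to 2.62 (Rpl35a).

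Most members were abundant in every column. The median member stood at 1337 FPKM in wild-type E16.5 skin and 1968 in Cyp26b1-/- skin, at 671 in control and 1155 in mutant dermis, and at 1227 in control and 1121 in mutant epidermis. The control dermis was the lowest of the 6. In wild-type skin 53 of the 100 genes with the highest FPKM were members, compared with 40 in control dermis and 42 in control epidermis. The highest in wild-type skin were Rps12 at 4563 FPKM, Rpl41 at 3472, the stalk gene Rplp1 at 3132, Rps4x at 2473 and Rps18 at 2423. Rpl41, which encodes a very short peptide, led in the E18.5 columns, with 9989 and 5696 FPKM in control and mutant dermis and 16600.5 and 8607 in the epidermis. Next in control dermis came Rplp1 (9235), Rpl18 (5386), Rps20 (5316) and Rps29 (4502), and in control epidermis Rplp1 (8632), Rps18 (6021), Rpl18 (5404) and Rps12 (5270).

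**Figure D1:**
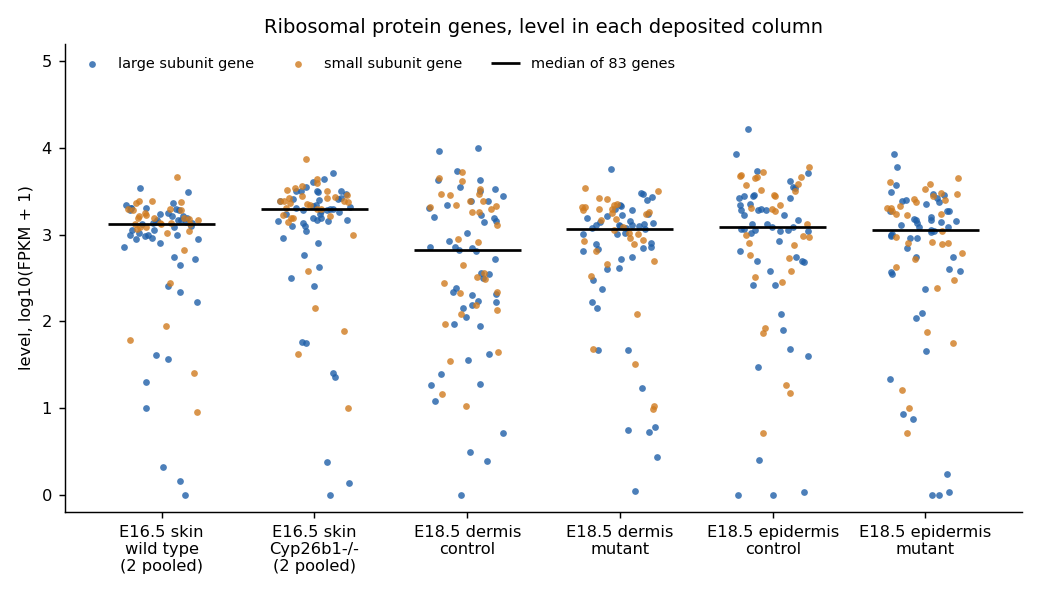
Level of each of the 83 ribosomal protein genes, as log10(FPKM + 1), in the 6 deposited columns; points are genes, coloured by subunit, and bars are medians. The control dermis has the lowest median (671 FPKM) and the genes there lie widely apart, while in wild-type skin 55 of 83 genes exceed 1000 FPKM.

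Some genes for core ribosomal proteins were listed at very low levels. In wild-type skin 11 members were under 100 FPKM. Of these, Rpl10l, Rpl39l, Rpl3l, Rpl7l1 and Rps4y2 are paralog copies. The others encode core proteins, among them Rps27 at 7.86 FPKM, Rpl26 at 8.86, Rps23 at 24.4, Rpl30 at 35.3 and Rps15a at 86.9. These 5 were under 100 FPKM in the E18.5 columns too, where Rps27 lay between 4.12 and 13.65. These values stand far below those of the other core genes. The only Rps27 transcript listed has a RefSeq non-coding identifier (NR_033727), so its value may not be that of the coding mRNA. The same holds for the copy Rps4y2 (NR_003634). Exact copies were common among the members as a whole: of the coding 31-base words of a member, a median of 95.5% occurred elsewhere in the genome (mm9), and 54 of 82 members had at least 90% copied. The share was 100% for Rps27 and 92.6% for Rpl26, but also 100% for the abundant Rps12. Across 82 members the wild-type level and the copied share had a Spearman rho of 0.13. Low shares were found in Rpl3l (0%), Rpl8 (11.2%), Rpl39l (13.5%) and Rps3 (18.9%). How the authors' processing treated reads that match several places is not given in the sources used here, so levels of copied members are uncertain, and its part in the low values was not tested.

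In E16.5 skin the members stood slightly and evenly above the median gene in the Cyp26b1-/- column, and only 2 of them passed the test. The median difference was 0.17 over the 81 members of at least 1 FPKM, 70 of which lay above the median gene and 11 below. No member differed 2-fold, against 1.67% of all genes at least 2-fold higher and 2.85% lower. At 1.5-fold there was 1 member higher (4.22% of all genes) and 0 lower (6.3% of all genes). The SD over members was 0.16, compared with 0.66 over all 14154 genes. It was not particular to the members, since the longer gene lists described below had SDs from 0.15 (proteasome subunits) to 0.22 (tRNA synthetases). Other abundant genes were also above the median gene: 1371 other genes of at least 100 FPKM had a median of 0.10. Measured against all genes of that level, the members' median was 0.07. In the same columns 8 lens genes summed to 65.4 FPKM in wild-type and 1851 in Cyp26b1-/- skin (8 of 8 higher), and 6 erythroid genes to 6480 and 11807 (6 of 6 higher). Their part in the members' values was not tested.

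The test used the authors' deposited statistic after subtraction of the median fold, with Benjamini-Hochberg adjustment over all tested transcripts. It called 1 of 82 members higher, against 8.25% of 16263 genes, and 1 lower, against 10.4%. The gene called higher was Rps28, a small subunit protein near the mRNA exit channel, which rose from 1455 to 2675 FPKM (log2 fold in the authors' deposited table minus its median 0.40, SE 0.14 implied by the statistic, adjusted p = 0.0272). The gene called lower was Rpl19, through a single transcript. Its transcript NM_001159483 went from 477 to 508 FPKM, a log2 fold of -0.39 (SE 0.14, adjusted p = 0.0397) on the same scale of the authors' deposited table. Its other transcript, NM_009078, went from 937 to 1669 FPKM, and its value from the authors' deposited table was 0.36 (SE 0.16, adjusted p = 0.123). Rpl19 as a whole, from 1414 to 2177 FPKM, therefore lay above the median gene by 0.19. Without subtraction of the median, the authors' own q-values called 75 of 82 members higher and 0 lower, against 54.7% and 3.44% of genes. At an unadjusted p under 0.05 after subtraction, 6 of 82 members were higher and 0 lower by all their transcripts past it. The share of all genes past this unadjusted threshold is not given, here or for the lists below. The count is therefore not a result about the members.

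The highest and lowest E16.5 differences were small except in low genes. Rpl26 went from 8.86 to 22.02 FPKM (0.80). It did not pass the test (0.84, SE 0.36, adjusted p = 0.0896, from the authors' deposited table). After it came Rps26 with 2316 and 4349 FPKM (0.48) and Rps28 (0.45). Rpl32, with 1656 and 2979 FPKM, and Rps10, with 1343 and 2414, stood at 0.42. Rpl23 (0.40), Rpl23a (0.37) and Rps24 (0.33) completed the upper end, and all 8 are core proteins. Rps26, which lies beside Rps28 on the small subunit, missed the threshold (0.43, SE 0.17, adjusted p = 0.0523, from the authors' deposited table). At the lower end, Rps27 went from 7.86 to 8.99 FPKM (-0.25). Rpl29 had 997 and 1248 FPKM (-0.11), and the paralog copy Rpl39l 18.9 and 23.99 (-0.10). Rps14 (-0.09), Rps4y2 (-0.08), Rpl35a and Rps21 (both -0.04) followed. These genes had more FPKM in the mutant column and lay only below the median gene's own difference.

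The stalk proteins recruit the elongation factors to the large subunit. In E16.5 skin Rplp0 went from 2049 to 3191 FPKM (0.21), Rplp1 from 3132 to 4392 (0.06) and Rplp2 from 1121 to 1546 (0.04). Rpsa, a small subunit protein also known as the laminin receptor precursor, went from 1337 to 1968 (0.13). None of these 4 passed the test. Among the most abundant members, Rps12 had 4563 and 7365 FPKM (0.26), Rpl41 3472 and 5104 (0.13), Rps4x 2473 and 3918 (0.24) and Rps18 2423 and 3660 (0.17).

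**Figure D2:**
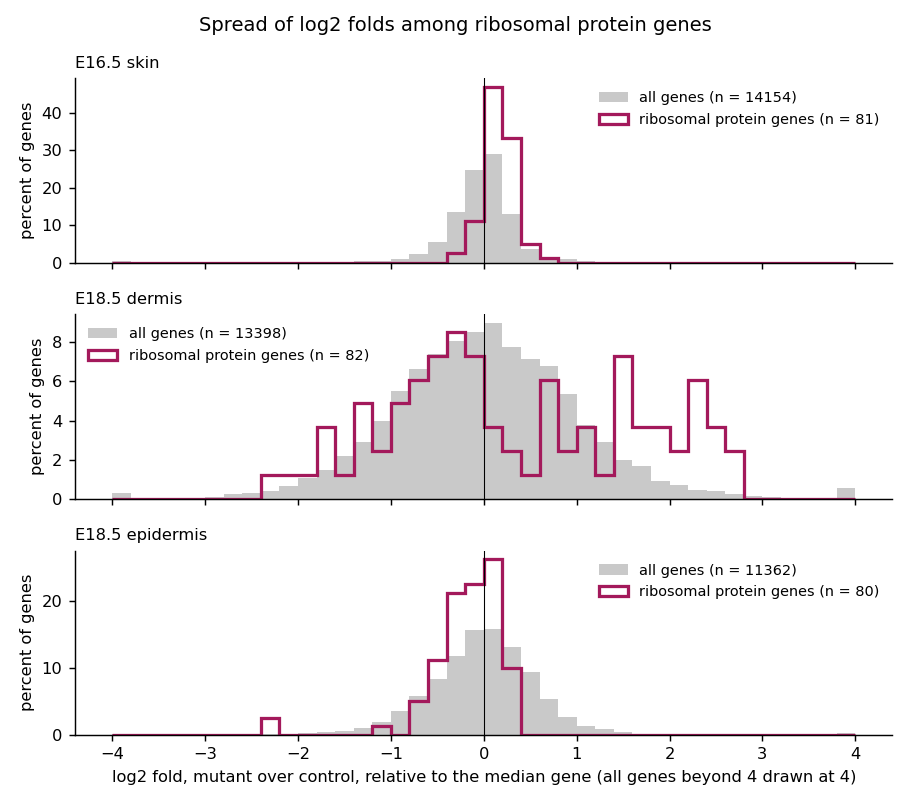
Distribution of log2 differences (mutant over control, relative to the median gene) for the ribosomal protein genes and for all genes of at least 1 FPKM, as percent of each set, in the 3 comparisons. The members are narrower than all genes in skin (SD 0.16) and epidermis (0.44) and broad in dermis (1.33), where all genes have an SD of 1.11.

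In E18.5 dermis the members spread apart in both directions around a median close to that of all genes. With 1 library in each group there is no test, and a 2-fold difference was used as the rule. Of 82 members, 28 were at least 2-fold higher in the mutant than the median gene (14% of all 13398 genes) and 13 at least 2-fold lower (13.9% of all genes). The share of members lower was thus close to that of all genes. The median difference was -9.14e-05, with 41 members above the median gene and 41 below. At 1.5-fold the counts were 35 higher (26.6% of all genes) and 23 lower (26.5%). The SD was 1.33 over members and 1.11 over all genes. Among 1165 other genes of at least 100 FPKM the median was -0.24, with 243 at least 2-fold higher and 307 lower. Their SD was 1.91, with extremes of -8.78 (Mir3091) and 9.98 (Snord57). Of 72 members of that level, 25 were higher and 11 lower (SD 1.33). The wide spread was thus not particular to the members among abundant genes.

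The highest differences in dermis belonged to genes that were low in the control library relative to the other members. The control level is itself part of the difference, so this order, here and at the lower end, is partly built in. Rpl36a, a large subunit protein near the exit site of the tRNA, had 91.7 FPKM in the control and 648 in the mutant (2.68). Rpl35a had 202 and 1363 FPKM (2.62), Rpl31 164 and 1034 (2.53), and Rpl36al, the near-identical copy of Rpl36a, 87.7 and 553 (2.52). In each of these 4 the FPKM was over 6-fold higher in the mutant library. Further high ones were Rpl9 with 207 and 1280 FPKM (2.50) and Rpl21 with 41.4 and 236 (2.36). In E16.5 skin Rpl35a stood at 1486 and 1946 FPKM and Rpl9 at 1241 and 1738, near the median member, while Rpl36al, at 557 and 918, and Rpl21, at 258 and 420.4, were below it.

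The lowest differences were mostly in genes that were very high in the control dermis. Rpl36 had 3184 FPKM in the control and 794 in the mutant (-2.13). The stalk genes Rplp1, with 9235 and 3048 FPKM (-1.72), and Rplp2, with 4282 and 1430 (-1.70), stood beside Rps29, with 4502 and 1533 (-1.68), and Rps20, with 5316 and 2250 (-1.36). Their partner Rplp0 went from 2756 to 1910 FPKM (-0.65), and Rpsa from 2223 to 1476 (-0.71), both short of 2-fold. The exceptions with low levels were Rpl22l1, a paralog of Rpl22, with 23.6 and 4.6 FPKM (-2.26), Rps23, with 33.6 and 9.47 (-1.85), and Rps4y2, with 121 and 46.7 (-1.48). Rpl41, the most abundant member, went from 9989 to 5696 FPKM (-0.93), and Rpl18, the third in level, from 5386 to 2539 (-1.21).

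**Figure D3:**
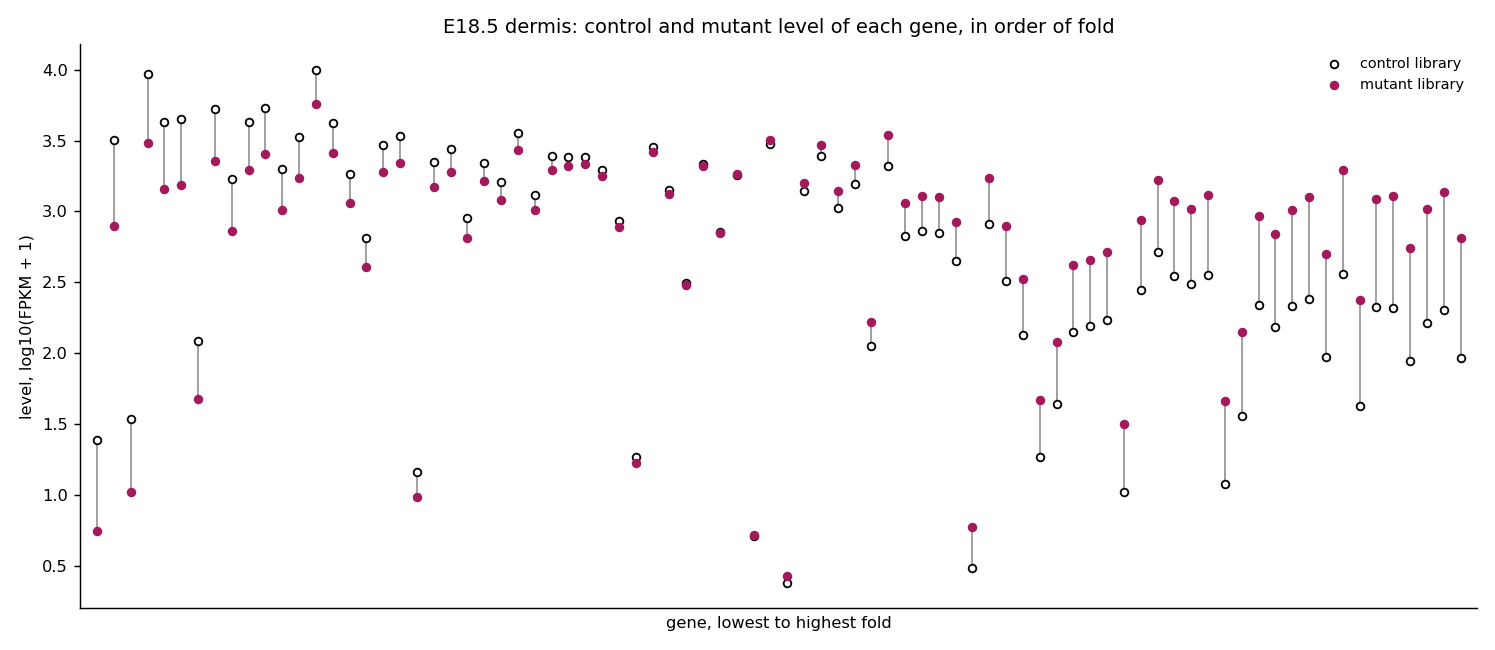
Level of each gene in the control (open) and mutant (filled) dermis library, as log10(FPKM + 1), ordered from the lowest difference (Rpl22l1, -2.26) to the highest (Rpl36a, 2.68). Genes at the right have low control levels and genes at the left mostly high ones, while the mutant levels lie closer together. The ordering uses the control level, so this is partly built in.

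The direction in dermis went with the base composition of the coding sequence. The 28 higher members had a median coding GC content of 48.6%, the 13 lower ones 57.7% and the 41 between them 54.2%. Under 50% GC, 18 of 23 members were at least 2-fold higher and 2 lower, compared with 682 and 276 of 3753 genes in all. At 55% GC or more, 0 of 23 were higher and 9 lower, compared with 237 and 1267 of 5443 genes. Across 81 members the difference and coding GC had a Spearman rho of -0.62, and across 12731 genes -0.36. These points come from the same pair of libraries and carry no p-value. To show the contrast, the first 120 bases of the coding sequence (GENCODE vM1, mm9, from the ATG) are given for 3 of the highest and 2 of the lowest members, with G and C in capitals.
Rpl36a: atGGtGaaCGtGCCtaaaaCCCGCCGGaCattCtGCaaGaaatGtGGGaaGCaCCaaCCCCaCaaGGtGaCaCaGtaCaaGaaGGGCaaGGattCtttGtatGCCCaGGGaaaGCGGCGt
Rpl35a: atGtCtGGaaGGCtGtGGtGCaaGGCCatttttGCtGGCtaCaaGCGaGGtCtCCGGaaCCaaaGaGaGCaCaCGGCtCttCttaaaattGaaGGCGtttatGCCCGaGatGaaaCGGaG
Rpl9: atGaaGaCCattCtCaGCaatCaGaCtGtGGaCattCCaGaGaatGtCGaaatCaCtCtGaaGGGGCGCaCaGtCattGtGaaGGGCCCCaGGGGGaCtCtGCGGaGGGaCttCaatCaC
Rpl36: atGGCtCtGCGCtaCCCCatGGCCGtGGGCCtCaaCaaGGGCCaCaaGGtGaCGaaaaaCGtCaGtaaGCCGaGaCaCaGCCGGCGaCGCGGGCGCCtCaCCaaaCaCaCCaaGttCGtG
Rplp2: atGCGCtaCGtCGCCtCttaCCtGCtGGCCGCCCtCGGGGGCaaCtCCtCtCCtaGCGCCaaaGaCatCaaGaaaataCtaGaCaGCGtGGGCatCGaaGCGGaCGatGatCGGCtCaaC
In these windows G and C make up 63, 61 and 63 of 120 bases in Rpl36a, Rpl35a and Rpl9, and 74 and 70 in Rpl36 and Rplp2. Over the whole coding sequence the values were 48.3%, 48.3% and 48.9% for the first group and 61.3% and 56.3% for the second. On mm9, Rpl36a lies at chrX:131120193-131122601 and Rpl36 at chr17:56752818-56753669. Rps20 (48.6% GC) was an exception, at least 2-fold lower. Rpl22l1 (39.6% GC) was also at least 2-fold lower, but over all genes the relation turned at the lowest GC. Under 45% GC, 78 of 1228 genes were at least 2-fold higher and 167 lower (median -0.21). From 45% to 48%, 286 of 1329 were higher and 65 lower (median 0.34). Rpl39 (44.2% GC) went from 111 to 167 FPKM (0.45).

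The control dermis library was the column in which level itself tracked base composition most closely. Among the 70 members of at least 100 FPKM in the skin and epidermis columns, log2(FPKM + 1) had an SD of 1.97 in control dermis and 1.03 in mutant dermis. The SD was 1.37 and 1.26 in control and mutant epidermis, and 0.74 and 0.77 in wild-type and Cyp26b1-/- skin. The dermis columns were not part of the filter. The lowest of the 70 stood at 34.9 FPKM in control dermis and at 218 in wild-type skin. For 69 of the 70, those with a coding sequence, the rho of level with GC was 0.83 in control dermis and 0.58 in mutant dermis. It was 0.73 in each epidermis column, and 0.07 and 0.01 in the skin columns. Without the filter, over 82 members, it was 0.64 in control dermis and 0.47 in mutant dermis. It was then 0.57 in each epidermis column, and 0.13 and 0.09 in the skin columns. Each E18.5 column thus showed the relation and neither E16.5 column did. Between any pair of columns, the log2 ratio over the 70 members had an SD of 0.98 to 1.75 where the control dermis was in the pair. Where it was not, the SD was 0.13 to 1.13. The columns also differ in age, tissue and cell type markers, and library preparation cannot be told apart from these.

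**Figure D4:**
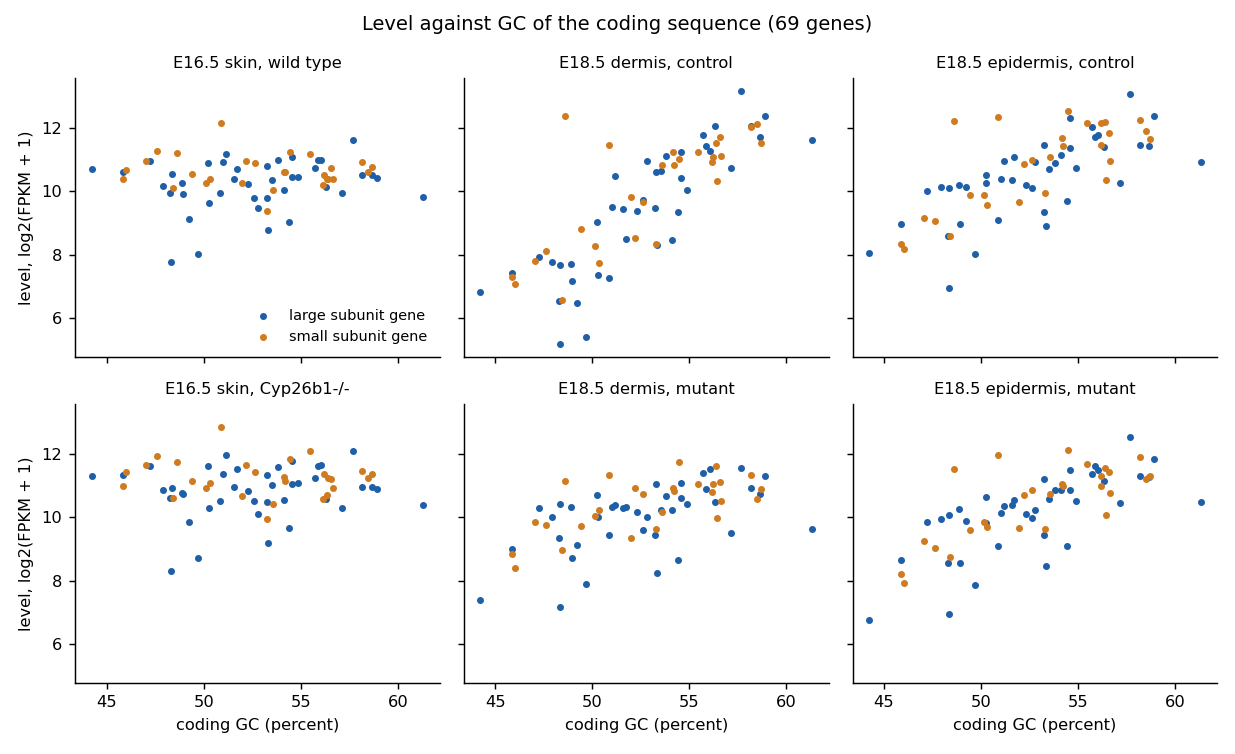
Level, as log2(FPKM + 1), against GC content of the coding sequence for 69 ribosomal protein genes in the 6 deposited columns; each point is a gene, coloured by subunit. The points are flat in E16.5 skin (rho 0.07 and 0.01) and rise with GC in the E18.5 columns, most closely in the control dermis (rho 0.83).

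Centring by base composition left the members more widely spread in dermis than all genes of at least 1 FPKM with a coding sequence. Those genes were not matched to the members for level. No such value is given for abundant genes or for the other lists, so the spread is not shown to be particular to the members. After subtraction of the median of the gene's bin among 20 bins of coding GC, an alternative chosen after seeing the data, 25 of 81 members were at least 2-fold higher (10.5% of all genes) and 13 lower (10% of all genes). The SD was 1.14 over members and 0.83 over all genes. Rpl36a then stood at 2.19, Rpl35a at 2.13, Rplp1 at -1.51, Rpl36 at -1.29 and Rpl22l1 at -1.86. In the same libraries 6 erythroid genes summed to 11681 FPKM in the control and 6917 in the mutant, and 8 skeletal muscle genes to 1772 and 5457, all 8 higher in the mutant. Of the keratinocyte genes all 8 were lower in the mutant, with 1 of 8 under 1 FPKM there, and 5 of the 6 fibroblast genes were higher, with none under 1 FPKM. Fewer cells of a type and less RNA per cell cannot be told apart in bulk tissue, and the part of these markers in the members' values was not tested.

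The paralog copies are alternative versions of a ribosomal protein, often used in particular tissues, and most were far below their parents. In wild-type skin Rpl22 stood at 218 FPKM and Rpl22l1 at 167, and Rpl36a at 996 and Rpl36al at 557. Rpl7 stood at 1986 and Rpl7l1 at 40.1, Rpl39 at 1659 and Rpl39l at 18.9, and Rps4x at 2473 and Rps4y2 at 59.2. Rpl3 stood at 1346 and the muscle-type copy Rpl3l at 0.42, and Rpl10 at 1934 with Rpl10l listed at 0. For Rps27 the order was the other way, with 7.86 FPKM for its listed transcript, which has a non-coding identifier, and 276 for Rps27l. The coding mRNA of Rps27 therefore cannot be set against Rps27l here, and the copied share of Rps27 is given above. The E16.5 differences of the copies ran from -0.10 (Rpl39l) to 0.29 (Rpl36al), and none passed the test. In dermis Rpl3l went from 2.06 to 4.95 FPKM (0.84), beside the higher skeletal muscle genes of that library. Rpl7l1 went from 11 to 45.5 (1.83), Rps27l from 42.7 to 119 (1.34), and Rpl39l from 17.5 to 16.0 (-0.25). Their parents stood at 0.73 (Rpl3), 2.25 (Rpl7), -0.72 (Rps27) and 0.45 (Rpl39), and Rps4x, the parent of Rps4y2, at 1.52. Rpl10 stood at 0.69.

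Rpl22 and Rpl22l1 were the pair that parted most. Both proteins bind RNA and can take each other's place on the large subunit. In dermis Rpl22 went from 34.9 to 141 FPKM (1.86) while Rpl22l1 went from 23.6 to 4.6 (-2.26). In epidermis Rpl22 stood at 121 and 123 FPKM (0.20), and Rpl22l1 at 46.6 and 7.59 (-2.29). In E16.5 skin neither gene passed the test, with 218 and 318 FPKM for Rpl22 (0.11) and 167 and 257 for Rpl22l1 (0.19). Rpl22l1 was the single member at least 2-fold from the median gene in both E18.5 tissues. It lies at chr3:28704433-28706337 on mm9, and 91.4% of its coding 31-base words have exact copies elsewhere.

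In E18.5 epidermis the members lay closer together than all genes did. Of 80 members, 0 were at least 2-fold higher in the mutant (3.49% of all 11362 genes) and 3 at least 2-fold lower (4.86% of all genes). The median difference was -0.10, with 29 members above the median gene and 51 below. At 1.5-fold there were 0 higher (12.1% of all genes) and 7 lower (14.8%). The SD was 0.44 over members and 0.75 over all genes. The longer gene lists described below had SDs from 0.27 (tRNA synthetases) to 0.61 (translation factors and other TOP mRNAs). The mitochondrial ribosomal protein genes, at 0.31, were closer together than the members. Other genes of at least 100 FPKM lay higher, with a median of 0.22 over 966 genes.

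The 3 lower members were Rpl22l1, Rpl26 and Rpl39. Rpl26, a large subunit protein at the tunnel exit, had 38.8 FPKM in the control and 6.54 in the mutant (-2.22). In the other tissues it was listed at 8.86 and 22.02 FPKM (skin) and 4.17 and 4.24 (dermis), with no common direction. Rpl39, which lines the tunnel, had 263 and 108 FPKM (-1.10). Below 2-fold, Rpl41 went from 16600.5 to 8607 FPKM (-0.77), Rps28 from 4560 to 2519 (-0.68), Rpl30 from 79.1 to 43.85 (-0.66), Rpl35 from 5104 to 2925 (-0.62) and Rps20 from 4742 to 2969 (-0.50). Several of these encode very short proteins: the coding lengths are 156 bases for Rpl39 and 210 for Rps28. Across 79 members the epidermis difference and coding length had a rho of 0.36, and across 10884 genes 0.05. The highest members were Rpl29, with 1226 and 1392 FPKM (0.36), Rps25, with 382 and 427 (0.34), and Rpl4, with 1473 and 1607 (0.30). Rpl27a (0.28), Rps3a (0.27), Rpl9 (0.24) and Rpl3 (0.20) followed.

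The stalk genes in epidermis went from 3409 to 3142 FPKM for Rplp0 (0.06), from 8632 to 5983 for Rplp1 (-0.35) and from 2679 to 2274 for Rplp2 (-0.06). Rpsa went from 1975 to 1731 (-0.01). Among the paralog copies, Rpl36al had 1115 and 955 FPKM (-0.05) beside 383 and 375 for Rpl36a (0.15). Rps27l (-0.22), Rpl7l1 (-0.28) and Rps4y2 (0.04) also stayed within 2-fold, and Rpl10l and Rpl3l were listed at 0 in both columns. Keratinocyte markers summed to 7942 FPKM in the control and 4149 in the mutant (2 of 8 higher), and 8 fibroblast genes to 186 and 35.5 (0 of 8 higher, 4 of 8 under 1 FPKM in the mutant). The part of these in the members' values was not tested.

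By subunit, the median difference was 0.19 for large and 0.15 for small subunit genes at E16.5, 0.13 and -0.16 in dermis, and -0.08 and -0.14 in epidermis. Members at least 2-fold apart in dermis held both kinds, with 17 large and 11 small subunit genes among the 28 higher and 9 and 4 among the 13 lower. The 28 had a median of 0.23 at E16.5 and 0.02 in epidermis. The 13 had 0.06 and -0.35. Across the 3 comparisons, which share no library, 18 of 80 members lay above the median gene in all and 4 below in all. The largest class, 26 members, lay above it in skin and below it in both E18.5 tissues. Class sizes over all genes are not given here. They also depend on how many members lay above the median gene in each comparison, so they are not a separate result.

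As a share of all summed FPKM, the members made up 16.4% in wild-type and 17.96% in Cyp26b1-/- skin, 19.7% in control and 16.7% in mutant dermis, and 21.9% in control and 18.6% in mutant epidermis. The direction in dermis depended on very abundant genes, some of which can be members. The 20 genes of highest FPKM in each column were taken out of both the members and the total. The share of the remaining members was then higher in the mutant by 0.75 percentage points. In E16.5 skin the mutant share was the higher under each alternative run.

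Other genes of protein synthesis showed where the ribosomal protein genes resembled their neighbours. The symbol rule misses Fau, which encodes a ribosomal protein fused to a ubiquitin-like protein, and Gnb2l1, a small subunit scaffold. At E16.5 these had differences of 0.03 and 0.10 and neither passed the test, and in dermis Fau went from 5226 to 1980 FPKM (-1.52). Among translation factors and other TOP mRNAs 0 of 21 passed at E16.5, where 8.25% of all genes were called higher and 10.4% lower. Their median was 0.18, with 2 higher and 1 lower at an unadjusted p under 0.05 of the recomputed Cuffdiff statistic. They included the poly(A)-binding protein gene Pabpc1 at 0.44 and Npm1, a nucleolar chaperone, at 0.43. In dermis 5 of 22 were at least 2-fold higher (14% of all genes) and 1 lower (13.9% of all genes). Eef1a1, the factor that delivers tRNA, went from 766 to 3706 FPKM there (2.15). Ribosome biogenesis genes had the highest median at E16.5 of the 7 lists, 0.28. Of 31, 5 were called higher (8.25% of all genes) and 0 lower (10.4% of all genes). Those called higher included Ltv1, from 32.8 to 63.3 FPKM (0.50), and Dkc1, from 22.2 to 42.4 (0.48).

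Mitochondrial ribosomal protein genes had a median of 0.10 at E16.5. Of 76, 2 were called higher (8.25% of all genes) and 0 lower (10.4% of all genes). Mrpl15, from 13.3 to 29.5 FPKM (0.67), was among those called. In dermis their SD was 1.04, under the 1.11 of all genes. There 16 of 76 were at least 2-fold higher (14% of all genes) and 10 lower (13.9% of all genes), and the rho with GC was -0.57. In dermis this rho was -0.56 for ribosome biogenesis genes, -0.51 for tRNA synthetases, -0.42 for proteasome subunits and -0.39 for respiratory chain subunits. For translation factors and other TOP mRNAs it had the opposite sign (0.32). Mrpl42 there went from 5.30 to 49.6 FPKM (2.88). Of the proteasome subunits 0 of 40 passed at E16.5 (shares of all genes as above), and 0 at the unadjusted threshold. In dermis 10 of 39 were at least 2-fold higher (14% of all genes) and 0 lower (13.9% of all genes). Of the tRNA synthetases 2 of 20 were called higher at E16.5 (8.25% of all genes). They were Wars, from 23.2 to 54.2 FPKM (0.76), and Qars. The summed level of Qars, from 102 to 145 FPKM, lay only 0.075 above the median gene. In dermis 9 of 20 were at least 2-fold higher (14% of all genes). Of the respiratory chain subunits 1 of 77 was called higher (8.25% of all genes) and 3 lower (10.4% of all genes) at E16.5. Among the 3, Atp5g1 was called through a single transcript, while its summed level went from 181 to 276 FPKM (0.18). In dermis 19 of 78 were at least 2-fold higher (14% of all genes) and 11 lower (13.9% of all genes). Their SD there was 1.16, against 1.11 over all genes. In epidermis no list but the respiratory chain had a member at least 2-fold higher (Ndufs5, listed at 0 in the control).

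**Figure D5:**
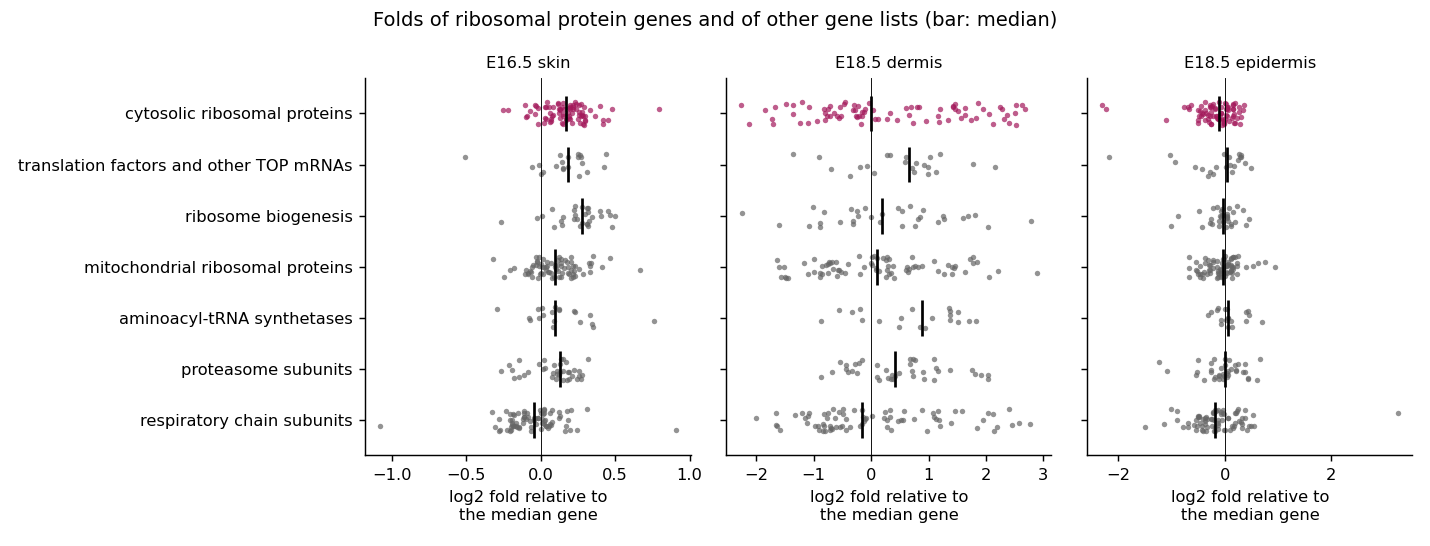
Log2 difference (mutant over control, relative to the median gene) of each gene in the ribosomal protein set and in 6 other lists, in the 3 comparisons, with the median as a bar and a separate horizontal scale for each panel. In dermis the SD was 1.33 for ribosomal proteins, 1.04 for mitochondrial ribosomal proteins and 1.16 for respiratory chain subunits, against 1.11 for all genes.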

How the data were processed

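Skin, dermis and epidermis RNA was sequenced as 8 libraries. The submitters' processing notes name mouse build mm9 and the tools Bowtie 0.12.7.0, TopHat 1.3.2, Cuffdiff 1.3.0 and Cufflinks, without roles or settings. Strand handling is not given in the sources used here, so overlapping antisense genes cannot be told apart. The 3 tables deposited by the authors give, per the file headers, control and mutant FPKM per RefSeq transcript. The authors' log2 fold, deposited with placeholder scores where 1 group is at 0, the deposited test statistic (a score) and the authors' deposited p-values and q-values stand beside them. FPKM hold no counts, so depth is unknown and no count test was run.

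FPKM were summed per symbol, with a pseudocount of 1 and a floor of 1 FPKM in either group. Symbols with a failed, too low or too high status were left out. The standard error was the deposited log2 fold divided by its statistic, which is that of the authors' model and not a spread between animals. Where the statistic was under 0.1, the median standard error of transcripts of like FPKM was used. At E16.5 the median deposited log2 fold (0.48) was taken off and the statistic, a two-sided normal p and its Benjamini-Hochberg adjustment (threshold 0.05) were computed anew. A gene needed a called transcript in 1 direction and none in the opposite direction. No p-value was computed for the single libraries of E18.5. Coding GC, exact 31-base copies and start-site runs came from GENCODE vM1, the mm9 genome and RefSeq. Python 3.11.15, numpy 2.4.6, pandas 2.3.3, scipy 1.17.1, numba 0.67.0 and matplotlib 3.10.9 were used, and the procedure was tested on simulated data.

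The members, lists and markers were chosen with earlier results of these data known. Named members were the 8 highest and 8 lowest in each comparison, the stalk genes and Rpsa, paralog copies with their parents, and the 5 highest controls. From each other list, up to 3 genes with the largest fold were named. Genes named for low level, copied share, sequence or GC were chosen after their values were seen. So were Rpl19, Rpl8, Rps3, Rpl15, Rpl14, Rpl28, Qars and Atp5g1. Members that the rule names but the text does not are not reported here. The tables held 0 columns of other samples. The alternatives were other pseudocounts, floors, centres, thresholds, status rules, transcript choices and denominators.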

Additional observations from a re-analysis of the deposited data

Results flagged for a closer look

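Of 80 members, 31 lay on opposite sides of the median gene in the 2 tissues at E18.5, and 1 of these, the large subunit protein gene Rpl30, was at least 1.5-fold from it in each. In dermis it went from 17.6 to 45.55 FPKM between control and mutant, a log2 difference of 1.20, and in epidermis from 79.1 to 43.85 FPKM, a difference of -0.66. Each group is 1 library, and the difference between the tissues was not tested. The shares of all genes on opposite sides, and past 1.5-fold in each tissue, are not given here. The counts are therefore not a result about the members. At E16.5 Rpl30 went from 35.3 to 54.9 FPKM (0.20). Of its coding 31-base words 90.3% have exact copies elsewhere in the genome, so its level is uncertain.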

How the results depend on the processing

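Of 88 recomputed values, 66 stayed within the limits set for them, 21 moved and 1 reversed. The members called at E16.5 (1 higher, 1 lower) were 75 and 0 by the authors' q without centring and 0 and 0 at an adjusted p of 0.01. Symbols with 1 transcript left 0 lower. Keeping symbols with a failed or low-data row gave 2 higher (Rpl38 and Rps28), and centring by GC bins gave 2 higher (Rps26 and Rps28) and 0 lower. The E16.5 median (0.17) was 0.34 with no floor, 0.60 with no centring and 0.066 when centred on genes of at least 100 FPKM. The dermis median (-9.14e-05) was 0.11, 0.12 and 0.21, and the epidermis median (-0.10) -0.25, -0.28 and -0.30, under the same 3 settings, with -0.26 at a floor of 10 FPKM. A 1.5-fold rule gave 23 lower in dermis and 7 in epidermis, since a lower threshold takes in more genes. The change in the members' share of summed FPKM reversed in dermis, from -3.07 to 0.75 percentage points. There the 20 highest genes of each column were left out, also from the members. In epidermis it moved from -3.25 to -1.99 with such symbols kept. Where no construction of the setting is named, the cause was not tested. No paired analysis was possible because each E16.5 column is a pool of 2 libraries and each E18.5 group is 1 library; leaving out a replicate was not run for the same reason. Depth limits cannot be stated from FPKM.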
